A study of Homo sapiens with 6 samples.

Results

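A set of 41 immediate early genes and feedback genes of the ERK branch of MAPK signalling was followed in HCT116 cells given miR-224. The set is a list of gene symbols. Each gene was represented by the brightest of its probe sets that carried no other gene symbol, by mean over the 6 arrays, and miR-224 cells were compared with control cells paired by the number in the sample titles. In all, 40 of the 41 listed genes were measured, among 19775 genes on the arrays, and the remaining one was not analysed here. HCT116 is an established human colon carcinoma line in which RAS signalling is activated by mutation. The cells were transfected with 50 nM of a miR-224 precursor or with 50 nM of control oligos, whose sequence the labels do not give, and total RNA was taken after 24 h. There were 3 arrays for miR-224 and 3 for control, described as pairs from 3 independent experiments in this 1 line. Values are RMA expression values of Affymetrix probe sets, read as log2, so that a difference of 1 stands for a factor of 2.

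Immediate early genes are transcribed within minutes of a growth signal without new protein synthesis, because the transcription factors that read the signal are already on their promoters. ERK phosphorylates ternary complex factors that sit with SRF on these promoters, and the first products, such as FOS and EGR1, are themselves transcription factors. A second set of ERK-induced genes, including dual-specificity phosphatases (DUSPs), Sproutys and SPREDs, acts back on the pathway and damps it, so that their transcript levels are widely used as readouts of ERK output. A total RNA sample taken after 24 h shows the state reached by then and not the first transcriptional wave, and in bulk RNA fewer cells making a transcript and less of it per cell cannot be told apart.

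Both mature strands of miR-224 are shown with the seed, bases 2 to 8, in capitals, because the seed is the part that selects its target transcripts. The RefSeq table places them on the minus strand of the X chromosome, at chrX:151958628-151958652 and chrX:151958584-151958606 (GRCh38.p14).
hsa-miR-224-5p: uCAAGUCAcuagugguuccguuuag
hsa-miR-224-3p: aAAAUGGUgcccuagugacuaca
The seeds of the strands differ, and matches to either in the members' transcripts were not analysed here.

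Promoters are shown for 4 members whose values are described further on. On their brightest probe sets, FOS and EGR1 were higher in the miR-224 cells of experiments 2 and 3, and MAFF and ZFP36L1 were lower in every experiment. All 4 hold the TGACGT motif marked below, which most members with a promoter entry did not, so they do not stand for the set. DUSP6 and DUSP7, also described further on, are not shown and were not among the members found to hold it. Each promoter window runs from 250 bases before to 50 after the annotated start, from RefSeq (GRCh38.p14). Capitals mark TGACGT on either strand (ACGTCA on the other), the core of the cAMP response element bound by CREB and ATF proteins, and the CArG box, the element bound by SRF, also on either strand. For MAFF and ZFP36L1, which have 2 annotated starts each, the start whose window holds TGACGT is shown. The windows are chr14:75278578-75278877 on the plus strand for FOS, chr5:138465229-138465528 on the plus strand for EGR1, chr22:38201744-38202043 on the plus strand for MAFF and chr14:68793367-68793666 on the minus strand for ZFP36L1.
FOS promoter: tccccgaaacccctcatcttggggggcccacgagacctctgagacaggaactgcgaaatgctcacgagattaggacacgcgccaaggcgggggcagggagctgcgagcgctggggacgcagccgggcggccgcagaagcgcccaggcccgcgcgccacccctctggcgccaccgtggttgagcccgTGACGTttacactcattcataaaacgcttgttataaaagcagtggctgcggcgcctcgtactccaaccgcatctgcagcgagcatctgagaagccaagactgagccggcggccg
EGR1 promoter: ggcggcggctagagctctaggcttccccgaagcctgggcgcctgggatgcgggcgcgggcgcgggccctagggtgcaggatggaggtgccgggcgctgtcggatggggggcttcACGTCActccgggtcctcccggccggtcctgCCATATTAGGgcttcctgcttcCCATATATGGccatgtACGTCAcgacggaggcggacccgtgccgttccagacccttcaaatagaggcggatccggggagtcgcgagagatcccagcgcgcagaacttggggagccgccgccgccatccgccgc
MAFF promoter: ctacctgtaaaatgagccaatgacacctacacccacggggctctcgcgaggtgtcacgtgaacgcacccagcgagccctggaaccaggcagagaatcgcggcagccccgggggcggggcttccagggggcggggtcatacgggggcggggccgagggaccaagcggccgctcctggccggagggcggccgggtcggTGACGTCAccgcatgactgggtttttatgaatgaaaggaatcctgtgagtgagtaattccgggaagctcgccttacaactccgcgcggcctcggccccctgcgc
ZFP36L1 promoter: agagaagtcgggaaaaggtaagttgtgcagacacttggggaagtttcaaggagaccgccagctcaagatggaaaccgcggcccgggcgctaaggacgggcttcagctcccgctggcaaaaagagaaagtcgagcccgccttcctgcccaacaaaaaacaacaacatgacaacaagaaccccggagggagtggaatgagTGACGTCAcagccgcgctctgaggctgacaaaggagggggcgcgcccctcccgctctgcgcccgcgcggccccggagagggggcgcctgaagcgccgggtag
Of the 31 measured members with an entry in the table, 11 (35.5%) held TGACGT in at least 1 window, against 9.64% of the 27305 genes in the table. Those genes were not limited to the ones measured on the arrays, nor matched to the members for level or number of annotated starts. The 11 were split between members with a higher mean in the miR-224 cells (5, FOS, FOSB, EGR1, DUSP1 and EPHA4) and members with a lower mean (6, FOSL2, JUND, MAFF, ZFP36L1, SPRED2 and EPHA2). A CArG box lay in the windows of 2 members, EGR1 and SRF (6.45%), against 1.6% of all genes in the table. The FOS window held none, and bases farther than 250 before a start were not searched. A match describes the letters of the window only.

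Both arrays of experiment 1 stood apart from the other 4. The actin control probe set at the 5′ end of the transcript read 4.14 in the miR-224 cells and 4.42 in the control cells of experiment 1, and 12.3 to 12.5 on the other arrays, whereas the 3′ one read 12.4 to 12.5 throughout. The part of this low 5′ signal in the members' values was not tested, and results are also given for experiments 2 and 3 alone. Of 8 epithelial markers 6, among them EPCAM and KRT18, were at or above the median level of all genes (4.75) on every array, and VIL1 and LGALS4 were below it. None of 5 leukocyte markers (0), 1 of 5 fibroblast markers (COL1A1) and 0 of 4 endothelial markers were so on every array. KRT8 was low in experiment 1, at 7.30 in the miR-224 cells and 6.73 in the control cells, against 11.0 to 11.3 on the other arrays. The summed level of the 8 epithelial markers lay between 60.6 and 66.0 in the miR-224 cells and between 59.2 and 66.3 in the control cells.

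Across the set, the miR-224 cells showed no shared shift. Of the 40 measured members 20 had a higher and 20 a lower mean in the miR-224 cells, with a median log2 difference of -0.0022, beside 0.012 over all genes. Single differences lay between -0.51 (MAFF) and 0.63 (FOS). By experiment, the median of the members was 0.022, 0.028 and -0.095 in experiments 1, 2 and 3.

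No member passed the test with experiment as a block (limma, lowest adjusted p = 0.22, for MAFF), and of all genes 0% passed (0 of 19775). At an unadjusted p under 0.05 there were 3 members higher, FOS, FOSB and DUSP6, where 5.45% of all genes met the same criterion, and 3 lower, MAFF, ZFP36L1 and DUSP7, where 5.52% did. Without the block, 2 members, FOS and ZFP36L1, had an unadjusted p under 0.05, against 1.58% of all genes. Letting the variance prior follow intensity, with robust estimation, 0 members passed (lowest adjusted p = 0.091, for ZFP36L1), against 0.283% of all genes. Being higher in each of the 3 experiments was seen for 6 members (FOS, FOSB, JUN, ZFP36L2, DUSP4 and DUSP6; 18.3% of all genes), and being lower in each for 8 (JUND, MAFF, KLF2, IER2, IER5, ZFP36L1, DUSP7 and SPRED1; 14.4% of all genes). The 3 miR-224 arrays lay wholly above the 3 control arrays for FOS alone (4.16% of all genes), and wholly below them for ZFP36L1 alone (2.11% of all genes).

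Experiments 2 and 3 alone, fitted with the block and 1 residual degree of freedom, called FOS as the only member, upward (adjusted p = 0.022), where 0.137% of all genes were called higher, and 0 members downward, where 0.743% were. At an unadjusted p under 0.05 in these 2 experiments, 4 members were higher (FOS, FOSB, EGR1 and DUSP6; 5.21% of all genes) and 6 lower (ATF3, FOSL2, MAFF, NR4A1, ZFP36L1 and EPHA2; 6.71% of all genes). With both arrays of experiment 2 or of experiment 3 left out in place of experiment 1, 0 members were called. The plot of differences by experiment shows the set gene by gene.

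**Figure D1:**
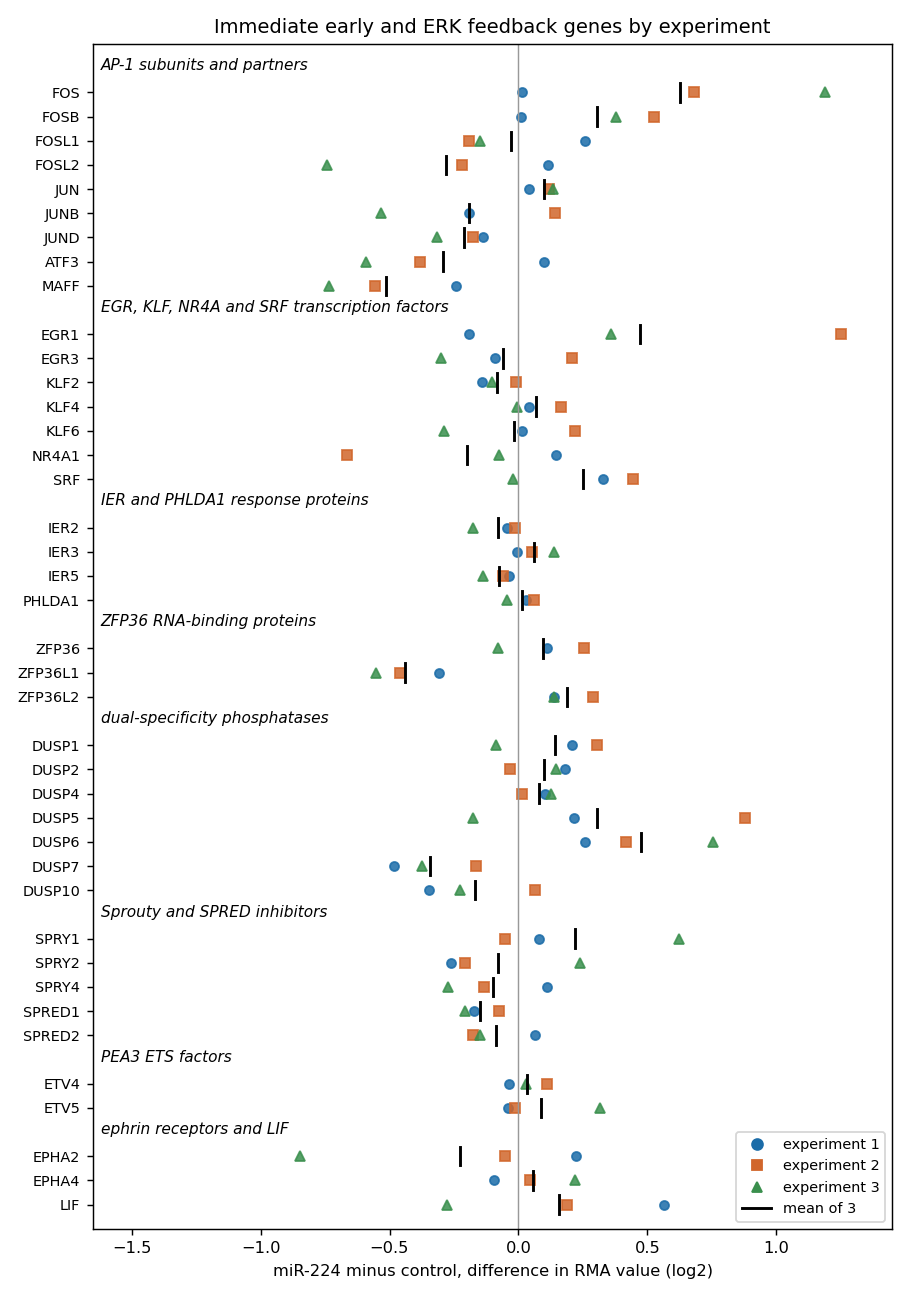
Difference between miR-224 and control cells in RMA value (log2, x axis) for the 40 measured members, grouped by role, with a point for each of the 3 experiments and a bar at their mean. The mean bars of FOS, EGR1 and DUSP6 lie farthest to the right and those of MAFF and ZFP36L1 farthest to the left, and 26 of the 40 members have experiments on both sides of 0.

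AP-1 is a dimer of a FOS and a JUN family protein, with ATF3 and the small MAF proteins as related partners, and the genes of its subunits differed in sign. Of the 9 genes in this group 3 had a higher mean in the miR-224 cells, FOS, FOSB and JUN, and 6 a lower one. The group's median difference was -0.19, and 0 of its members passed over all genes. In experiments 2 and 3 the sign was the same for 8 of the 9, all but JUNB, compared with 57.3% of all genes. The share was 61.3% for genes at or above the median level and 62.5% for all members. In the other groups of members it lay between 42.9% and 75%.

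FOS, the founding immediate early gene, read 4.52, 5.18 and 5.13 in the miR-224 cells of experiments 1, 2 and 3, against 4.51, 4.50 and 3.94 in the control cells. The groups did not overlap, but the gap between the lowest miR-224 array and the highest control array was set by experiment 1, where the difference was 0.013. Experiments 2 and 3 gave 0.68 and 1.19, and the mean difference was 0.63 ± 0.19 (SE, limma with experiment as a block, adjusted p = 0.28), or 0.93 ± 0.15 in experiments 2 and 3 alone. Without experiment 3 it was 0.35 (limma adjusted p = 0.59). Its mean level was 4.94 ± 0.37 in the miR-224 cells and 4.32 ± 0.32 in the control cells (SD, n = 3 each), on either side of the median of all genes. FOS had 1 probe set, so no other probes bear on its value.

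FOSB, a close relative of FOS, read 4.16, 4.64 and 4.08 in the miR-224 cells, against 4.15, 4.11 and 3.70 in the control cells, all below the median level of all genes. Its differences by experiment were 0.0086, 0.53 and 0.38, so that, as for FOS, experiment 1 gave almost none, and the mean was 0.30 ± 0.12 (SE, adjusted p = 0.42). FOSL1, which encodes FRA-1 and is the FOS gene most tied to sustained ERK activity, was well above the median level and read 9.89, 8.24 and 8.93 in the miR-224 cells, against 9.64, 8.44 and 9.08 in the control cells. Its difference was 0.26 in experiment 1 and -0.19 and -0.15 in experiments 2 and 3, with a mean of -0.027 ± 0.12. FOSL2, which encodes FRA-2, stood at 0.12, -0.22 and -0.74 by experiment.

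Among the JUN genes, JUN read 6.69, 7.14 and 7.39 in the miR-224 cells, against 6.65, 7.02 and 7.26 in the control cells. It was higher in each experiment by small amounts, 0.042, 0.12 and 0.13, and the groups overlapped because the experiments lay farther apart than the treatments. JUND, the JUN gene least dependent on stimulation, was lower in each experiment, with differences of -0.14, -0.17 and -0.32, and its other bright probe sets had means of -0.19 and -0.18. JUNB stood at -0.19, 0.14 and -0.53, with both signs.

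MAFF, a small MAF protein that lacks an activation domain and is induced with the immediate early genes, was the member with the smallest p. It read 7.41, 6.48 and 5.98 in the miR-224 cells, against 7.66, 7.03 and 6.71 in the control cells. Within every experiment the miR-224 array was the lower one, with differences of -0.24, -0.56 and -0.74, although the groups overlapped because experiment 1 was high in both. The mean difference was -0.51 ± 0.12 (SE, adjusted p = 0.22). Its second probe set, also above the median level, gave -0.082, -0.16 and -0.64, with a mean of -0.29. ATF3, a stress-induced repressor of the same leucine zipper class, stood at 0.10, -0.38 and -0.59 in experiments 1, 2 and 3, and its second bright probe set stood at -0.27 on average.

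The other transcription factors of the set, EGR, KLF and NR4A genes with SRF, did not move together. Of 7 measured genes 3 had a higher mean and 4 a lower one, and 0 had an unadjusted p under 0.05 over the 3 experiments. EGR1, a zinc finger factor induced through SRF sites, had the largest mean difference of this group. It read 10.21, 9.15 and 9.66 in the miR-224 cells, against 10.41, 7.90 and 9.30 in the control cells, so that the control arrays alone spanned 2.51 and the groups overlapped. The differences were -0.19, 1.25 and 0.36 in experiments 1, 2 and 3, with a mean of 0.47 ± 0.22 (SE, adjusted p = 0.48), and the mean was 0.80 without experiment 1, 0.082 without experiment 2 and 0.53 without experiment 3. Averaged over its probe sets, the mean difference was 0.14.

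The probe sets of EGR1 disagreed where its difference was largest. In experiment 2 the brightest stood at 1.25, while the others, with mean levels of 7.91 and 5.09, stood at -0.19 and -0.83. In experiment 3 all 3 probe sets were higher, at 0.36, 0.45 and 0.33 in order of brightness. The higher EGR1 value of experiment 2 therefore rests on 1 probe set, and that of experiment 3 on 3.

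SRF, the factor that binds CArG boxes in FOS and EGR1, was higher in experiments 1 and 2, by 0.33 and 0.44, and stood at -0.022 in experiment 3. Its mean difference was 0.25 ± 0.12 (SE, adjusted p = 0.50), and its dim second probe set was higher in each experiment, by 0.23, 0.18 and 0.43. EGR3 was below the median level and stood at -0.092, 0.21 and -0.30 by experiment. On their brightest probe sets the Krüppel-like factors differed little. Means were -0.085 ± 0.10 for KLF2, 0.068 ± 0.10 for KLF4 and -0.018 ± 0.12 for KLF6. The other bright probe set of KLF4 had a mean of -0.11, and those of KLF6 had means of -0.14, 0.12 and 0.18. NR4A1, an orphan nuclear receptor that is induced early, was 0.14, -0.67 and -0.075 by experiment on its brightest probe set, which differed mainly in experiment 2. Its other probe sets, also above the median level, disagreed. The brighter of them stood at 0.17, -0.29 and -0.20, and the dimmer at -0.031, 0.19 and 0.39.

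**Figure D2:**
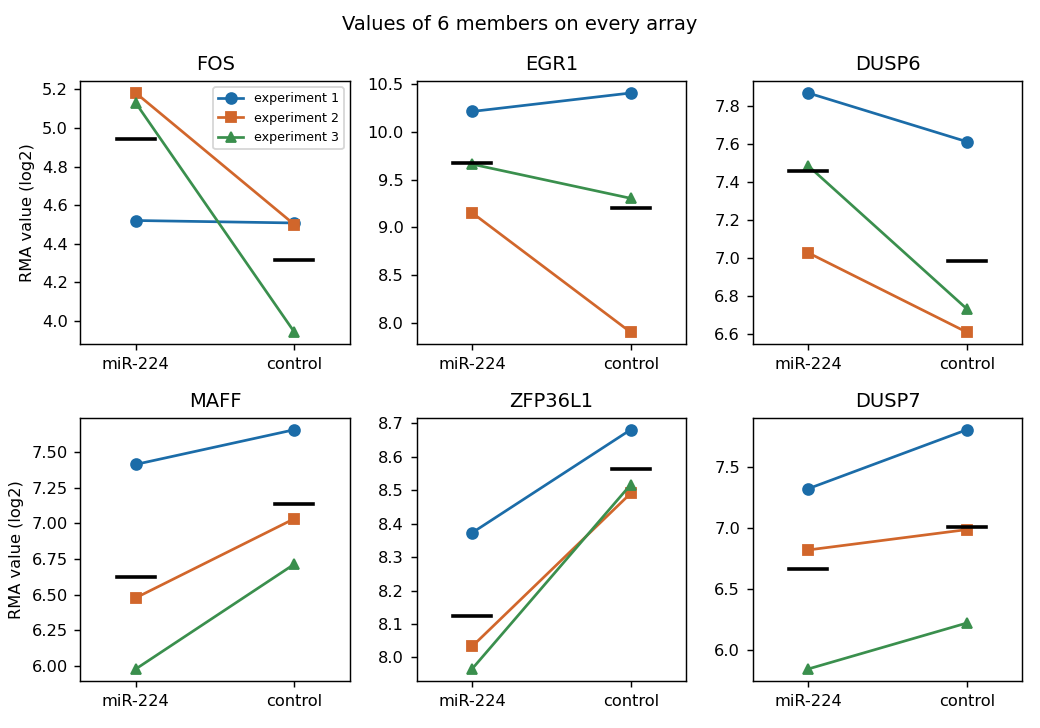
RMA values (log2, y axis, each panel with its own range) of FOS, EGR1, DUSP6, MAFF, ZFP36L1 and DUSP7 on the 3 miR-224 arrays (left) and the 3 control arrays (right), with arrays of one experiment joined and black bars at the group means. Only FOS and ZFP36L1 have groups that do not overlap, and in EGR1, DUSP6, MAFF and DUSP7 the experiments lie farther apart than the treatments.

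The early response genes IER2, IER3, IER5 and PHLDA1 had small differences on their brightest probe sets. The means lay between -0.078 and 0.061, and 0 of the 4 passed. IER3, an ERK-induced survival protein, read 11.40, 11.30 and 11.26 in the miR-224 cells, against 11.40, 11.25 and 11.13 in the control cells. PHLDA1, a pleckstrin-homology domain protein, read 10.23, 10.16 and 10.28 in the miR-224 cells, against 10.20, 10.10 and 10.33 in the control cells. Both pairs of groups overlapped. The mean difference was 0.061 ± 0.10 for IER3 and 0.014 ± 0.10 for PHLDA1 (SE), with 95% limits of -0.17 to 0.29 for IER3 and -0.22 to 0.24 for PHLDA1. The other 5 probe sets of PHLDA1, all above the median level, had means of -0.076, 0.20, -0.12, 0.29 and 0.091 from the brightest to the dimmest, of either sign.

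The ZFP36 genes encode proteins that bind AU-rich elements and hasten the decay of short-lived transcripts, including those of many immediate early genes. They differed from each other. ZFP36L1 read 8.37, 8.03 and 7.97 in the miR-224 cells, against 8.68, 8.49 and 8.52 in the control cells, and the groups did not overlap. It was lower in each experiment, with differences of -0.31, -0.46 and -0.55 and a mean of -0.44 ± 0.11 (SE, limma with experiment as a block, adjusted p = 0.23). Its second probe set, also above the median level, gave -0.14, -0.56 and -0.54. The remaining ones, with mean levels of 2.60 and 2.53, gave 0.36 and 0.011 on average, and with all its probe sets averaged the mean difference was -0.12.

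ZFP36, also known as tristetraprolin, stood at 0.11, 0.26 and -0.079 by experiment, with a mean of 0.096 ± 0.11. ZFP36L2 was higher in each experiment, by 0.14, 0.29 and 0.14, with a mean of 0.19 ± 0.10 (SE, adjusted p = 0.56). ZFP36L1 and ZFP36L2 thus had opposite signs in every experiment, a difference between the genes that was not tested.

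Dual-specificity phosphatases remove phosphate from threonine and tyrosine of MAP kinases and are themselves induced by them. Of the 7 in the set, 5 had a higher mean in the miR-224 cells and 2 a lower one, with a median difference of 0.098. The cytoplasmic ERK phosphatases DUSP6 and DUSP7, which share their preference for ERK, stood on opposite sides of 0.

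DUSP6 read 7.87, 7.03 and 7.49 in the miR-224 cells, against 7.61, 6.61 and 6.73 in the control cells. The miR-224 array was the higher one in each experiment, by 0.26, 0.42 and 0.75, while experiment 1 was high in both groups and the groups overlapped. The mean difference was 0.48 ± 0.12 (SE, limma with experiment as a block, adjusted p = 0.24). Both other probe sets, above the median level as well, were higher in experiments 2 and 3, by 0.59 and 0.46 and by 0.31 and 0.59, whereas in experiment 1 they stood at 0.11 and -0.22.

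DUSP7 read 7.32, 6.82 and 5.85 in the miR-224 cells, against 7.80, 6.99 and 6.22 in the control cells. It was lower in each experiment, with differences of -0.48, -0.17 and -0.38 and a mean of -0.34 ± 0.11 (SE, adjusted p = 0.32). Its level differed more between experiments than between treatments, and its second probe set stood at -0.33, -0.35 and 0.084.

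The nuclear phosphatases DUSP1, DUSP2, DUSP4 and DUSP5 had means of 0.14 ± 0.12, 0.098 ± 0.11, 0.080 ± 0.10 and 0.30 ± 0.17 (SE). DUSP5, which is specific for ERK, was uneven, at 0.21, 0.88 and -0.18 in experiments 1, 2 and 3. DUSP4 was higher in each experiment by 0.10, 0.012 and 0.13, and its other bright probe sets had means of 0.17 and 0.0038. DUSP10, which acts on p38 and JNK, was below the median level and stood at -0.35, 0.066 and -0.23.

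**Figure D3:**
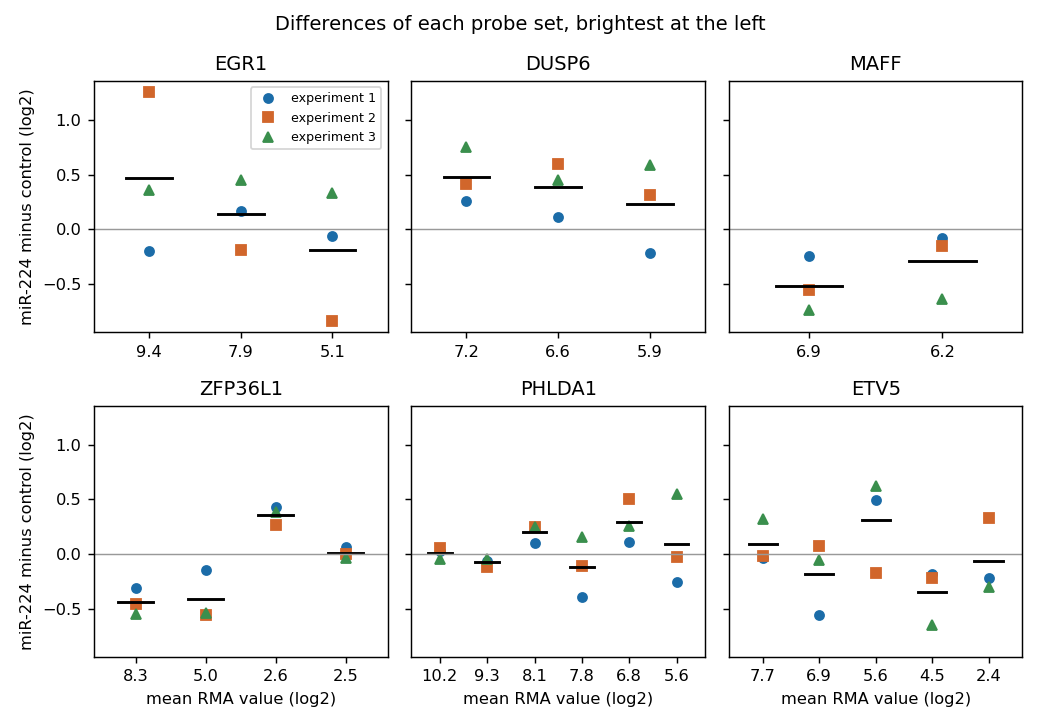
Difference between miR-224 and control cells (log2, y axis) for every probe set of EGR1, DUSP6, MAFF, ZFP36L1, PHLDA1 and ETV5, ordered by mean RMA value (x axis, brightest at the left), with a point per experiment and a bar at the mean. The probe sets of DUSP6 and MAFF and the 2 brighter ones of ZFP36L1 have means on one side of 0, while those of EGR1, PHLDA1 and ETV5 fall on both sides.

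Sproutys and SPREDs inhibit the step from receptors and RAS to RAF. In this group of 5, SPRY1 had a higher mean in the miR-224 cells and the other 4 a lower one. Means lay between -0.15 and 0.22, and there were 0 with an unadjusted p under 0.05. SPRY4 read 7.45, 7.20 and 6.81 in the miR-224 cells, against 7.34, 7.33 and 7.08 in the control cells, with a mean difference of -0.099 ± 0.11 (SE). SPRY2 read 5.13, 4.05 and 4.18 in the miR-224 cells, against 5.40, 4.26 and 3.94 in the control cells. In both genes the groups overlapped and the sign differed between experiments. SPRY2 stood at -0.26 and -0.21 in experiments 1 and 2 and at 0.24 in experiment 3, and only its values in experiment 1 were above the median level.

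SPRY1 was below the median level and stood at 0.081, -0.051 and 0.62. SPRED1 was lower in each experiment by small amounts (-0.17, -0.075 and -0.21), and its dim probe sets had means of 0.057 and 0.25. SPRED2 stood at 0.063, -0.18 and -0.15 by experiment.

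The PEA3 factors ETV4 and ETV5, ETS proteins whose transcripts follow ERK activity in many tissues, had small mean differences on their brightest probe sets. ETV4 read 6.09, 6.40 and 6.29 in the miR-224 cells, against 6.13, 6.29 and 6.26 in the control cells, with a mean difference of 0.034 ± 0.10 (SE). ETV5 read 7.20, 8.10 and 7.82 in the miR-224 cells, against 7.24, 8.11 and 7.50 in the control cells, with a mean difference of 0.088 ± 0.11. The groups overlapped in both genes, and their other bright probe sets did not share one sign, at -0.42 for ETV4 and -0.18 and 0.31 for ETV5.

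The remaining members were the ephrin receptors EPHA2 and EPHA4 and the cytokine LIF. EPHA2, a receptor tyrosine kinase induced by ERK, read 8.38, 8.29 and 7.64 in the miR-224 cells, against 8.16, 8.34 and 8.49 in the control cells. Its difference lay almost wholly in experiment 3, at 0.22, -0.051 and -0.85, with a mean of -0.23 ± 0.18 (SE, adjusted p = 0.71). LIF also had both signs, at 0.56, 0.19 and -0.28, and EPHA4, below the median level, stood at -0.093, 0.044 and 0.22.

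Over the 3 control arrays the range of a member was 0.62 at the median, beside 0.59 for the 10062 genes at or above the median level in 1 of the groups and 0.39 for all genes. It was widest for EGR1 (2.51), between the control arrays of experiments 1 and 2. The control array of experiment 1 had the low 5′ signal described above, and its part in these ranges was not tested. The SD of the 3 paired differences was 0.20 at the median of the members, against 0.18 for all genes. Among the 40 members, 34 had a group mean at or above the median level. The 6 below it were FOSB, EGR3, DUSP10, SPRY1, SPRY2 and EPHA4.

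Most members had more than 1 probe set. The 40 members had 97 probe sets, 25 members had several, and 16 had 29 others at or above the median level. Of those 29, 9 had a mean difference opposite in sign to the brightest probe set, in 7 members.

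The other genes of the pathway were described with 4 lists. In the ERK core, which carries the signal from RAS through RAF and MEK to ERK, 10 of 15 listed genes were measured. Of these 5 had a higher and 5 a lower mean in the miR-224 cells, none passed in either direction (0 at an unadjusted p under 0.05), and differences lay between -0.21 and 0.15. Receptors and adaptors that feed the core had 14 of 16 genes measured, 7 higher and 7 lower, again with 0 at an unadjusted p under 0.05 and a range of -0.19 to 0.13.

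Nuclear effectors that act on immediate early promoters had 13 of 14 genes measured, with a median difference of 0.031. At an unadjusted p under 0.05 there were 2 of the 13 lower, ELK3 and ETS1 (5.52% of all genes), and 1 higher, ERF (5.45% of all genes), and 0 passed over all genes. ELK3, a ternary complex factor that represses SRF targets until ERK phosphorylates it, read 8.58, 8.38 and 7.88 in the miR-224 cells, against 8.84, 9.04 and 8.82 in the control cells. The groups did not overlap, and the differences were -0.26, -0.66 and -0.94, with a mean of -0.62 ± 0.14 (SE, limma adjusted p = 0.19). Where the variance prior followed intensity, ELK3 was called (limma adjusted p = 0.046), as were 0.283% of all genes. In experiments 2 and 3 alone ELK3 was called lower (limma adjusted p = 0.028), as were 0.743% of all genes. ERF, an ETS repressor that ERK exports from the nucleus, was higher in each experiment, by 0.39, 0.30 and 0.21. ETS1, an activator phosphorylated by ERK, stood at -0.18, -0.11 and -1.59, so that its mean of -0.63 came mainly from experiment 3.

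A list of 30 other immediate early and ERK-response genes, none of them members, had more lower than higher means. Like the other lists, it was chosen with earlier results of these data known, so its counts are a description and not a test. Of 27 measured 19 had a lower and 8 a higher mean in the miR-224 cells, with a median of -0.13, beside 0.012 over all genes and -0.0022 for the members. Of all 19775 genes, 9259 had a lower mean. Of the 27, 23 were at or above the median level, where 5268 of 10062 genes had a lower mean, with a median of -0.0092. At an unadjusted p under 0.05, 8 of the 27 were lower (5.52% of all genes) and 0 higher (5.45% of all genes). Over all genes 0 of them passed (limma, lowest adjusted p = 0.22). All of the 8 but NFKBIZ were at or above the median level, where 830 of 10062 genes were lower and 506 higher at that p. By experiment the median of the list was -0.094, -0.089 and -0.096. Without experiment 2, 3 of the 27 were lower at an unadjusted p under 0.05, and without the block 1 was.

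CCN1, a secreted matricellular protein and early response gene, was lower in each experiment, with differences of -0.45, -0.32 and -0.66 and a mean of -0.48 ± 0.11 (SE, adjusted p = 0.22). NR4A2, an orphan nuclear receptor related to NR4A1, was lower in each experiment too, with differences of -0.25, -0.68 and -0.34 and a mean of -0.42 ± 0.12. CCND1, the cyclin through which ERK activity drives the G1 phase, read 9.86, 8.64 and 9.03 in the miR-224 cells, against 9.79, 9.43 and 9.99 in the control cells. Its differences were 0.072, -0.79 and -0.96, and it was called lower in experiments 2 and 3 alone (limma adjusted p = 0.019). GEM, a small GTP-binding protein, stood at -0.0098, -0.58 and -0.56. These genes had the smallest p of the list among those at or above the median level.

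**Figure D4:**
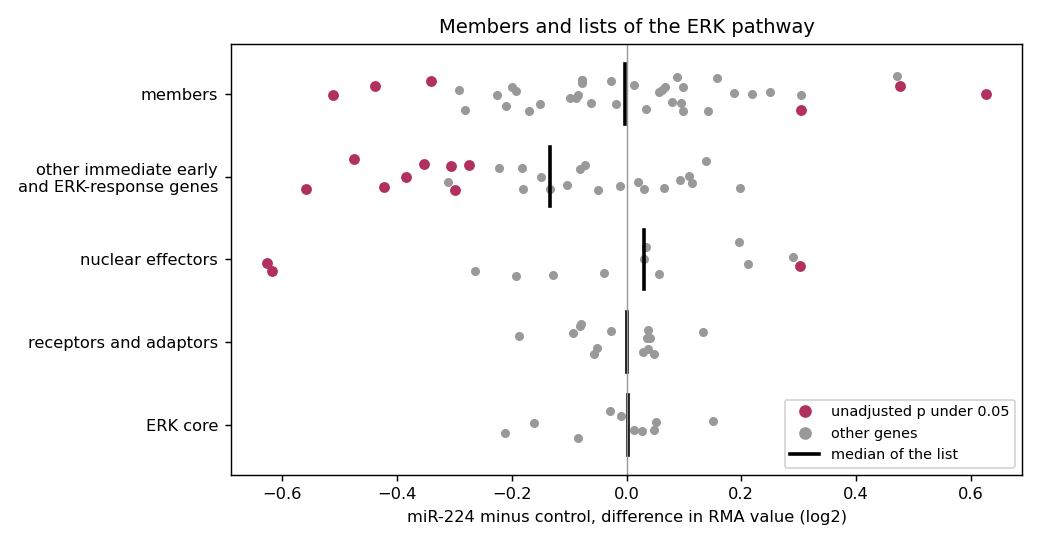
Mean difference between miR-224 and control cells (log2, x axis) of each measured gene in the member set and in 4 lists of the ERK pathway (rows), with genes at an unadjusted p under 0.05 in colour and a black bar at each list's median. The members spread evenly around 0 with 3 coloured genes on each side, the receptors and the ERK core hold none, and the 8 coloured genes among the other immediate early genes all lie below 0. Members and lists were chosen with earlier results of these data known.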

How the data were processed

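Labelled total RNA of 6 HCT116 samples was hybridised to Affymetrix arrays. The deposited log2 values are RMA values that the authors made with RMA and Partek, per the submitters' processing notes. Versions and settings were not stated there, nor was the base of the logarithm, which was taken as 2 from the range (1.47 to 13.6, array medians 3.41 to 3.53). RMA makes array distributions alike, so that a shift shared by most genes cannot be seen. The number of arrays limits the precision.

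Of 54675 probe sets, 41091 carried 1 gene symbol in the array annotation, and 62 control probe sets were left out. Symbols were checked by gene identifier against RefSeq, and 0 changed. Each of the 19775 genes was fitted by linear model with experiment as a fixed block, leaving 2 residual degrees of freedom (moderated two-sided test in limma 3.58.1, under R 4.3.3). P-values were adjusted by the Benjamini-Hochberg method across the whole table, and an adjusted p under 0.05 was called. The pairing comes from the sample titles and the series text. Across genes, same-numbered arrays deviated from their group means together (r = 0.855, 0.585 and 0.771), and the r of other pairs lay between -0.753 and 0.257. Deviations from a group mean sum to 0, so high r for same-numbered arrays lowers the r of other pairs by construction. Both arrays of experiment 1 also share the low 5′ signal, whose part in the first r was not tested. The 95% limits use the same moderated fit.

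Members and lists were chosen with earlier results of these data known. Members given array by array are those at an unadjusted p under 0.05 whose higher group mean reached the median level, plus FOS, JUN, EGR1, IER3, DUSP6, SPRY2, SPRY4, ETV4, ETV5 and PHLDA1, and FOSB, FOSL1 and EPHA2, which were added after their values were seen. From each pathway list up to 4 genes with the smallest unadjusted p under 0.05 at that level were named. Alternatives were the fit without the block, each experiment left out, other variance and weighting settings, other normalizations, all or averaged probe sets, and only brighter genes. The fit was tested on simulated data with planted differences larger than the mean difference of any member. That test does not show how well the fit finds differences as small as those of the members. Plots were made in matplotlib 3.10.9 (Python 3.11.15).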

Additional observations from a re-analysis of the deposited data

How the results depend on the processing

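The fit with experiment as a block called 0 genes over all genes and 0 members. It called 174 genes and 1 member, FOS, without experiment 1, so that leaving out single experiments gave 0 to 174 genes and 0 to 1 members. A robust variance prior that follows intensity gave 56 genes and array weights 4, with 0 members in each. Members at an unadjusted p under 0.05 numbered 6, but 2 without the replicate block and 6 to 10 without single experiments. Among the other immediate early genes the count lower at that p was 8, but 1 without the replicate block and 3 to 8 without single experiments. The median of that list, -0.13, was -0.115 to -0.0949 without single experiments, -0.107 with array weights, -0.101 with quantile normalization and -0.151 with median centring. The median of the nuclear effectors, 0.031, was -0.0535 with probe sets averaged by gene and -0.0217 to 0.0022 without single experiments.

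Signs changed for ETV4, ETV5, PHLDA1 and SPRY2, which stood near 0, and on single probe sets for EGR1, JUN and ZFP36L1. ETV4 stood at -0.0038 to 0.0696 without single experiments, at -0.19 with the mean of its probe sets and at -0.42 on its other probe set. ETV5 stood at -0.027 to 0.152 without single experiments, at -0.038 with the mean of its probe sets and at -0.18, -0.35 and -0.062 on 3 others. PHLDA1 stood at -0.0091 to 0.0435 without single experiments, at -0.0046 with median centring and at -0.076 and -0.12 on other probe sets. SPRY2 stood at -0.236 to 0.014 without single experiments. Single probe sets turned the sign of EGR1 (-0.19), JUN (-0.12) and ZFP36L1 (0.36 and 0.011), and averaging the probe sets gave 0.14 for EGR1 and -0.12 for ZFP36L1. EGR1 stood at 0.082 to 0.80 without single experiments. The cause of these changes was not tested. FOS was 0.93 without experiment 1 (limma adjusted p = 0.022), 0.60 without experiment 2 (adjusted p = 0.72) and 0.35 without experiment 3 (adjusted p = 0.59), and its mean level left it out where only brighter genes were tested. MAFF, DUSP6, DUSP7, IER3 and SPRY4 kept their sign under every alternative run, and FOS under all but that one, which gave it no value.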

Other observations

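Genes of the interferon response, which transfected double-stranded RNA can induce, were described beside the early response genes. Of 12 listed genes 11 were measured, 2 of them at or above the median level of all genes. In the miR-224 cells 6 were higher and 5 lower on average, the median being 0.0062 (log2) within a range of -0.29 to 0.13. None of the 11 had an unadjusted p under 0.05 (0 passed in limma with experiment as a block). The control cells were transfected with oligos too, so a response shared by both groups would not show in these differences. Such a shared response was not tested. The list's summed level lay between 42.8 and 44.7 in the miR-224 cells and between 42.7 and 45.3 in the control cells.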
